A study of Mus musculus with 20 samples.

Results

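The genes described here encode the proteins of the cytosolic ribosome. They were taken as every probe set annotated to 1 gene symbol that is Rpl or Rps followed directly by a number, or Rplp0, Rplp1, Rplp2 or Rpsa. Ribosomal S6 kinases and pseudogenes marked as such were left out. The rule found 100 probe sets for 48 genes among the 22626 probe sets of the array that are not controls. Of these, 84 probe sets for 45 genes were bright enough to be tested, and 80 of the 84 lay above the brightness limit on all 20 arrays. The other 16 probe sets lay above that limit on 0 arrays and read at most 586. They include the only probe sets of Rpl14, Rpl3l and Rpl39l. A further 102 probe sets name a ribosomal protein gene together with other symbols, mostly pseudogenes. They are not members and are given only for comparison.

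Total brain RNA of mice that were either wild type or knock-in was hybridised to 20 oligonucleotide arrays. Each genotype had 3 arrays of cerebellum and 3 of forebrain at 4 weeks, and 2 of each at 11 weeks, an age that the titles give as 12 weeks. Neither the allele that was knocked in nor the strain is given in the labels, nor how the wild-type mice are related to the knock-in mice. The labels also leave it unsaid whether each array holds a different mouse, and the p-values therefore reflect a spread between samples that may be technical. For 7 of the 10 forebrain arrays another label names cerebellum. They were placed by the short code in the title. The Purkinje cell marker Pcp2 reached at most 579 on the 10 forebrain arrays and had 38010 to 55244 on the cerebellum arrays. Bcl11b, a transcription factor of cortical and striatal neurons, read 3472 to 6182 on the forebrain arrays and 13.8 to 31.9 on the cerebellum arrays.

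The cytosolic ribosome makes all proteins encoded in the nucleus. Its small subunit, built on 1 RNA with the Rps proteins, reads the messenger, and its large subunit, built on the other RNAs with the Rpl proteins, joins the amino acids. Each ribosome holds most of these proteins once, and the stalk of the large subunit, which carries several copies of Rplp1 and Rplp2 on Rplp0, recruits the elongation factors. The messengers of these genes are among the most abundant in a cell. Most start with a short run of pyrimidines, through which growth signalling by mTORC1 adjusts their translation. Neurons are known to carry many ribosomes in the cell body and some in dendrites and axons. Several genes have close paralogs, such as Rps27l beside Rps27 and Rpl7l1 beside Rpl7, so that the parent gene and the paralog can be followed separately where probe sets tell them apart.

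Promoters of ribosomal protein genes are known for binding sites of ETS family factors. The windows shown here belong to genes whose levels are described further on, chosen to show that core beside promoters of the same set that lack it. They come from RefSeq (GRCm38.p6) and run 5′ to 3′ on the strand of the gene. Capitals mark the ETS core CCGGAAG or its reverse complement. Rpl41 (chr10:128549192-128549251, minus strand, 83 to 24 bases before the start site), Rps2 (chr17:24719909-24719968, plus strand), Rpsa (chr9:120127551-120127610, plus strand) and Rps27l (chr9:66946056-66946115, plus strand, 30 bases either side of the start) hold 1 match each. Rps15 (chr10:80292386-80292445, plus strand) and Rpl7l1 (chr17:46782642-46782701, minus strand) hold 0 in their 300 bases, and for these the window runs from 45 bases before the start to 15 after it.
Rpl41: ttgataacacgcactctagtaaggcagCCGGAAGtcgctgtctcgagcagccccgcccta
Rps2: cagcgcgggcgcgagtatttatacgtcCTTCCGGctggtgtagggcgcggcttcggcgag
Rpsa: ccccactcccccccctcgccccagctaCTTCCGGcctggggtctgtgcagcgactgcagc
Rps27l: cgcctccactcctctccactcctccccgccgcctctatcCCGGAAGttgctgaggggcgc
Rps15: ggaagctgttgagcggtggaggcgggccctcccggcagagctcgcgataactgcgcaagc
Rpl7l1: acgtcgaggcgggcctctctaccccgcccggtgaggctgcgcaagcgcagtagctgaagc

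A promoter of 300 bases, 250 before and 50 after the start, was found by symbol for 39 of the 45 tested genes. CCGGAAG, searched on both strands, was in 20 of them (51.3%), and in 9.12% of the promoters of all 27025 genes in the table. The GC box GGGCGG was in 22 (56.4%, against 35.9%), the pyrimidine run CTTTCC in 18 (46.2%, against 26.3%) and the YY1 core AAGATGGC in 3 (7.69%, against 2.88%). TATAAA was in 5 (12.8%, against 14.2%) and CCAAT in 11 (28.2%, against 37.9%). Each of these is a match of letters on either strand and not a measured binding site. No motif searched contains another.

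Intensities had been scaled so that every array has nearly the same trimmed mean, and a difference is therefore relative to the other RNAs of the sample. In bulk tissue, fewer cells of a type and less RNA per cell cannot be told apart. Levels are intensities, errors of levels are SDs over arrays, and differences are in log2(intensity + 16) ± standard error from a limma fit to all 20 arrays. A probe set was called at an adjusted p under 0.05 over all 15627 tested probe sets. Median intensity per array was 979 to 1180, and RNA integrity, read from the GAPDH 3′/5′ ratio, gave values of 0.744 to 0.903. Of the 84 probe sets, 58 were brighter than 90% of all probe sets, and their median residual SD was 0.18 log2 units, against 0.20 over all tested probe sets. Of the 84, 17 carry the plain suffix of a unique probe set, and the other 67 carry the suffixes a, s or x, which mark probes that can match more than 1 transcript, so signal from pseudogenes and variant transcripts cannot be told apart there.

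More ribosomal protein probe sets were lower than higher in cerebellum compared with forebrain. In wild-type mice 27 of the 84 probe sets were lower in cerebellum, beside 21.3% of all tested probe sets, and 7 were higher, beside 26.6%. The median difference was -0.22, while that of all tested probe sets was 0.04. In knock-in mice 32 were lower, beside 21.2% of all tested, and 3 were higher, beside 24.5%, with a median of -0.23 against 0.02. In both subunits the lower ones outnumbered the higher ones. In wild type, 13 of 41 large subunit probe sets were lower and 3 higher (median -0.18), and 14 of 43 small subunit probe sets were lower and 4 higher (median -0.25). In knock-in mice the large subunit had 14 lower and 1 higher, and the small subunit 18 lower and 2 higher. With only the brightest probe set of each of the 45 genes, 14 were lower and 3 higher in wild type, and 20 lower and 1 higher in knock-in mice.

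**Figure D1:**
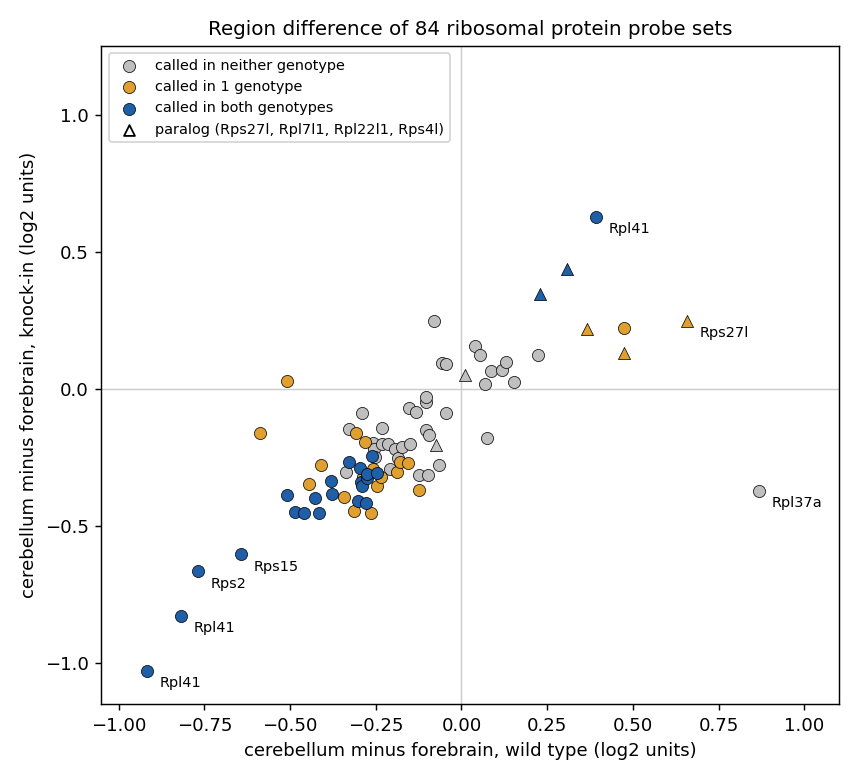
Cerebellum minus forebrain in log2 units for each of the 84 tested probe sets, in wild-type mice (horizontal axis) and knock-in mice (vertical axis); colour gives in how many genotypes a probe set was called and triangles are paralogs. Of the 27 probe sets lower in wild type and the 32 lower in knock-in mice, 21 are shared, and the 2 brighter Rpl41 probe sets lie lowest on both axes.

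The 2 genotypes share no array, so each gives the region difference from separate arrays. The tests of both use the same residual variance for each probe set, taken from the fit to all arrays. The probe sets lower in both numbered 21, which is 77.8% of the wild-type and 65.6% of the knock-in calls. They belong to 16 genes: Rpl4, Rpl6, Rpl13a, Rpl19, Rpl35, Rpl41 and Rplp2 of the large subunit, and Rps2, Rps14, Rps15, Rps18, Rps20, Rps26, Rps28, Rps29 and Rpsa of the small one. The share of calls found in both genotypes is not given for all tested probe sets. Whether the members overlap more than other probe sets is therefore not known. The test of the region difference between the genotypes called 0 of the 84 members (3 at an unadjusted p under 0.05), beside 0.198% of all tested probe sets higher and 0.0832% lower. All cerebellum arrays lay below all forebrain arrays for 19 of the 84 members in wild type and 10 in knock-in mice, where 15.96% and 14.90% of all tested probe sets did so. All lay above for 4 and 1 members, where 19.1% and 16.6% of all did. The share of members lying below was thus over that of all tested in wild type, and under it in knock-in mice.

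Array medians of the same members and values describe the same difference by array. For each array, the median over the 84 members of the deviation from the 20-array mean was -0.38 to 0.26 in cerebellum (median -0.14) and -0.02 to 0.21 in forebrain (median 0.13). All tested probe sets together had medians of -0.01 to 0.08 and -0.06 to 0.03. Of the 10 cerebellum arrays, 8 lay below 0, wild type replicate 2 at 11 weeks lay at 0.00, and knock-in replicate 2 at 11 weeks lay at 0.26, the highest of all 20. That array also had the highest GAPDH 3′/5′ ratio, 0.903, and the part of this ratio in the result was not tested. Its actin 3′/5′ ratio was 1.11, where all 20 arrays had 0.934 to 1.23. The array with the next highest GAPDH ratio (0.890), knock-in forebrain replicate 2 at 4 weeks, had a members' median of 0.11. The lowest array was knock-in cerebellum replicate 3 at 4 weeks.

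**Figure D2:**
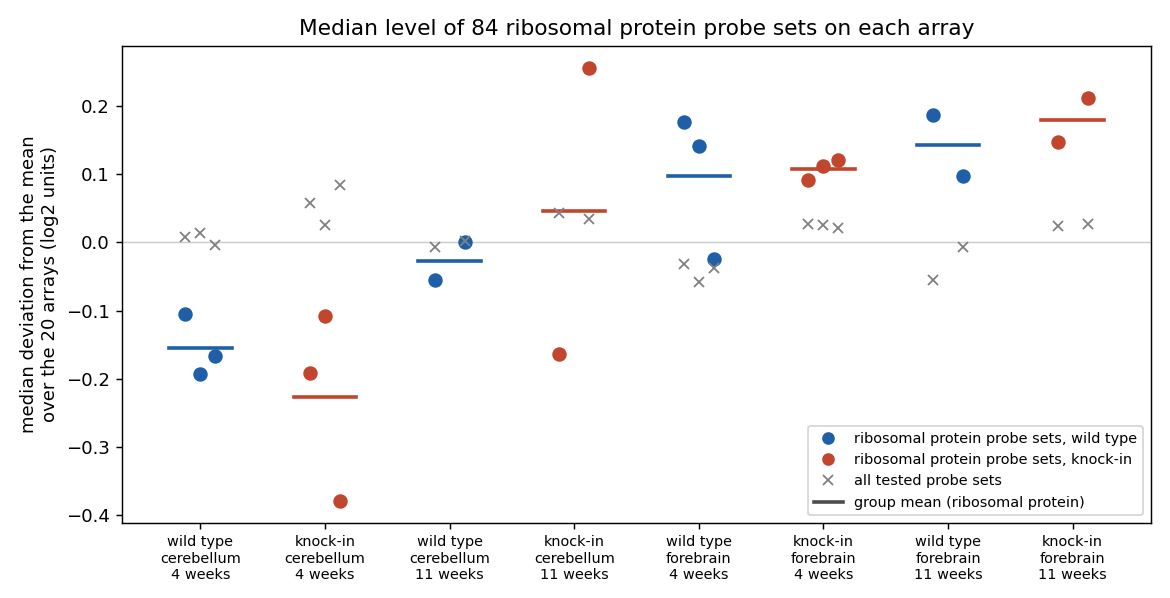
Median deviation of the 84 ribosomal protein probe sets from their mean over the 20 arrays (circles, blue wild type, red knock-in; lines are group means) and the same median over all tested probe sets (crosses), in log2 units for each array of the 8 groups. Forebrain arrays lie between -0.02 and 0.21, and knock-in cerebellum at 11 weeks holds 1 array at -0.16 and 1 at 0.26.

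Rpl41 showed the greatest fall of any member in either genotype. It encodes the smallest protein of the ribosome, a short basic peptide of the large subunit. In wild-type cerebellum its brightest probe set read 40585, 30308 and 40131 at 4 weeks and 36064 and 32368 at 11 weeks. In wild-type forebrain it read 83940, 63174 and 58330 at 4 weeks and 67789 and 64661 at 11 weeks. All 5 cerebellum arrays were below all 5 forebrain arrays. The difference was -0.92 ± 0.19, a fold of 1.89 (limma, adjusted p = 0.000931). In knock-in mice the probe set read 25982, 37087, 19273, 23088 and 44829 in cerebellum and 59941, 58744, 71517, 59985 and 52601 in forebrain, again without overlap. That difference was -1.03 ± 0.19, a fold of 2.04 (limma, adjusted p = 0.000386). The next brightest probe set of the gene gave -0.82 ± 0.13 and -0.83 ± 0.13. The dimmest tested probe set of Rpl41 went the other way, with 0.39 ± 0.15 in wild type and 0.63 ± 0.15 in knock-in mice. It read 386 to 1417 over the 20 arrays and lay above the brightness limit on 14 of them, among them all 10 wild-type arrays and 0 of the 5 knock-in forebrain arrays. With values under the limit raised to it, the knock-in difference was 0.19 and was not called (limma, adjusted p = 0.159). The wild-type call (limma, adjusted p = 0.0358) was lost without the filter (0.0599) and with quantile (0.0607) or cyclic loess normalization (0.0555), and when any of 6 of the 10 wild-type arrays was left out (highest 0.164, without forebrain replicate 2 at 11 weeks).

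Rps2, a small subunit protein by the channel through which the messenger enters, read 24308, 23142 and 24160 in wild-type cerebellum at 4 weeks and 22602 and 20404 at 11 weeks. In wild-type forebrain it read 46339, 41849 and 40106, and then 36855 and 32989. The arrays did not overlap, and the difference was -0.77 ± 0.11, a fold of 1.70 (limma, adjusted p = 3.64e-05). In knock-in mice the values were 16171 to 27405 in cerebellum and 29056 to 43940 in forebrain, and the difference was -0.67 ± 0.11 (limma, adjusted p = 0.000163). This probe set is the only one of the gene, and its suffix marks shared probes.

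Rps15 lies in the head of the small subunit near the decoding site, and both of its probe sets fell. The dimmer one read 9229 to 11534 on the 5 wild-type cerebellum arrays and 13250 to 18815 on the 5 forebrain arrays, with a difference of -0.64 ± 0.12 (limma, adjusted p = 0.000327). In knock-in mice it was -0.60 ± 0.12 (limma, adjusted p = 0.00062). Its cerebellum values there reached 13482 and its lowest forebrain value was 13047, so 1 cerebellum array overlapped. The brighter one gave -0.43 ± 0.11 in wild type and -0.40 ± 0.11 in knock-in mice, and its suffix is that of a unique probe set. Rpsa, a small subunit protein also known as the laminin receptor, was measured by a unique probe set too. It read 15928 to 19547 in wild-type cerebellum and 21758 to 31172 in forebrain, a difference of -0.48 ± 0.11 (limma, adjusted p = 0.00126). The knock-in difference was -0.45 ± 0.11 (limma, adjusted p = 0.00246).

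**Figure D3:**
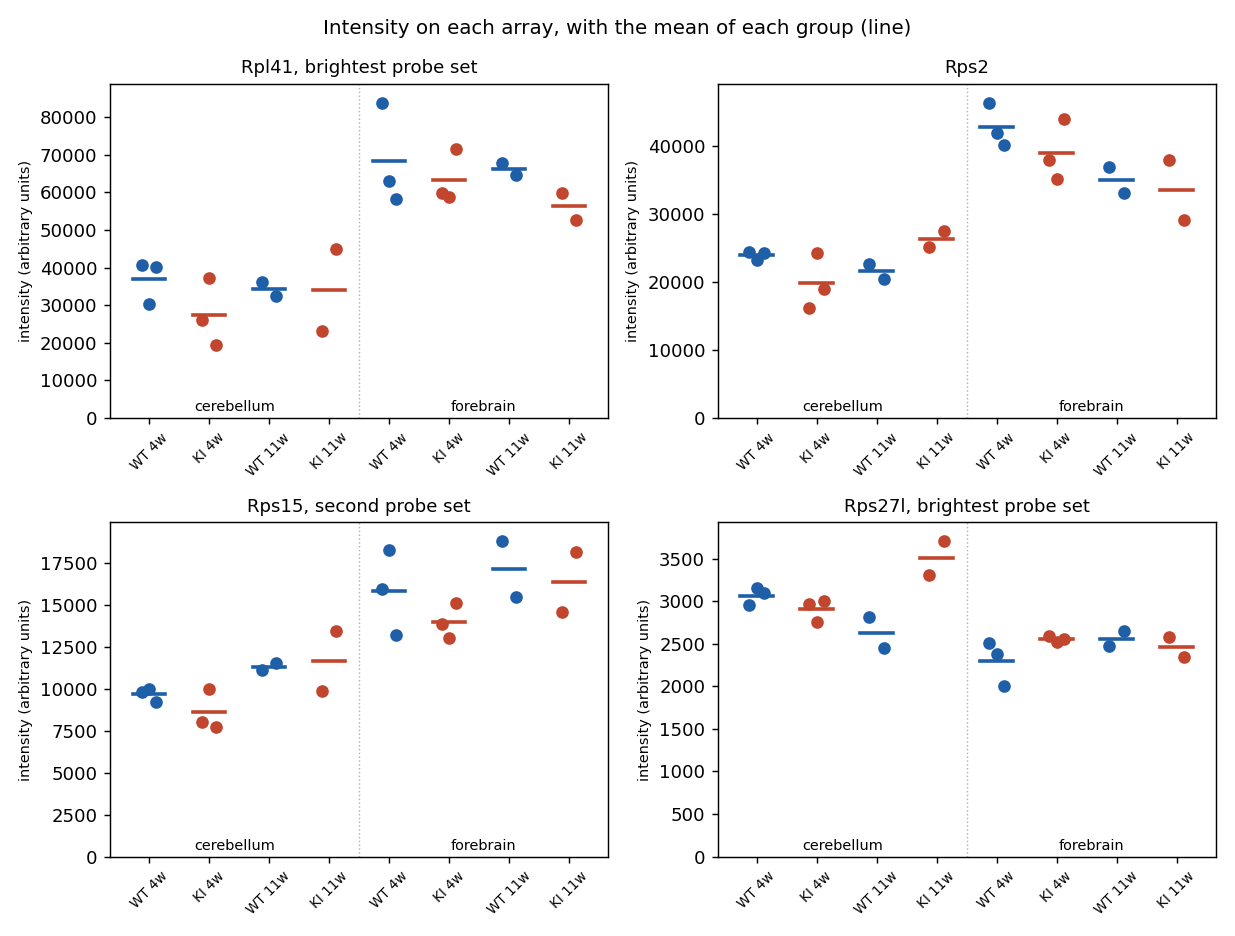
Intensity on each array (points) with group means (lines) for Rpl41, Rps2, the dimmer Rps15 probe set and Rps27l, by region, genotype (WT wild type, KI knock-in) and age in weeks (w). Rpl41 and Rps2 read lower on every cerebellum array than on every forebrain array, and Rps27l reads 2007 to 2647 in forebrain and 2454 to 3704 in cerebellum.

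Other members followed at smaller sizes. Rpl35, at the exit of the peptide tunnel, was called by 2 of its 6 tested probe sets, with -0.46 ± 0.12 and -0.42 ± 0.13 in wild type and -0.45 for both in knock-in mice. Its other 4 gave -0.21 to -0.06 in wild type. Rps14 gave -0.51 ± 0.13 and -0.39 ± 0.13 in the 2 genotypes, and Rplp2, of the stalk, -0.33 ± 0.10 and -0.27 ± 0.10. Rplp0, which anchors that stalk and is often used as a reference gene, read 15424 to 17850 in wild-type cerebellum and 15089 to 17686 in wild-type forebrain. Its difference was 0.04 ± 0.07 in wild type (95% interval -0.11 to 0.19) and 0.16 ± 0.07 in knock-in mice (0.003 to 0.31), and neither was called. The rule found no probe set for Rplp1.

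Some calls were made in 1 genotype only. Rpl37 of the large subunit fell by 0.59 ± 0.12 in wild type and read -0.16 in knock-in mice, and the dim Rps10 probe set fell by 0.51 ± 0.17 in wild type. For neither was the difference between the genotypes called (0.43, adjusted p = 0.427, and 0.54, adjusted p = 0.53, both from limma). A Rps24 probe set gave -0.45 ± 0.14 in wild type, and -0.35 in knock-in mice without a call. Rps4x gave -0.26 in wild type without a call and fell by 0.45 ± 0.11 in knock-in mice. Rpl37a (-0.45 ± 0.13), Rpl4 (-0.42 ± 0.10) and Rps18 (-0.41 ± 0.12) were among the largest falls in knock-in mice. Another probe set of Rpl37a, and the same ones of Rpl4 and Rps18, were called in wild type. The dimmest tested Rpl37a probe set went the other way in wild type, at 0.87, the highest difference of any member, and was not called.

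The exceptions that rose in cerebellum were led by the paralogs Rps27l and Rpl7l1. Of the 7 tested probe sets of paralogs, which belong to 4 genes, 5 were higher in wild-type cerebellum and 0 lower (median 0.31). These were 3 of Rps27l and 2 of Rpl7l1, and 26.6% of all tested probe sets were higher. The other 77 members had 2 higher and 27 lower (median -0.25). In knock-in mice 2 of the 7 paralog probe sets were higher, both of Rps27l, and 0 lower. That share is near the 24.5% of all tested probe sets that were higher there. All 7 members higher in wild-type cerebellum were among the 42 dimmer members. Being a paralog and being dim therefore cannot be told apart here. Rps27l differs from Rps27 by a few residues and is known as a p53 target. Its brightest probe set read 2953, 3151 and 3095 in wild-type cerebellum at 4 weeks, and 2809 and 2454 at 11 weeks. In wild-type forebrain it read 2510, 2378 and 2007, and then 2472 and 2647. The groups overlapped at 11 weeks only. The difference was 0.23 ± 0.08 in wild type (limma, adjusted p = 0.0261) and 0.35 ± 0.08 in knock-in mice (limma, adjusted p = 0.00207). The other 2 probe sets gave 0.31 ± 0.11 and 0.66 ± 0.22 in wild type, both called, and 0.44 ± 0.11, called, and 0.25 ± 0.22, not called, in knock-in mice. With cyclic loess normalization the wild-type call was lost for all 3 probe sets (limma, adjusted p = 0.0501 to 0.162).

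Rps27 itself had 1 dim probe set, with -0.10 ± 0.21 in wild type and -0.31 ± 0.21 in knock-in mice, neither called. Rpl7l1, a relative of Rpl7 that takes part in making the large subunit, rose in wild-type cerebellum by both probe sets (0.47 ± 0.15 and 0.37 ± 0.10). In knock-in mice they gave 0.13 ± 0.15 and 0.22 ± 0.10, not called. Its brighter probe set read 2021 to 2679 in wild-type cerebellum and 1243 to 2377 in forebrain, and the forebrain value of 2377 came from replicate 2 at 11 weeks. Rpl7 gave 0.12 ± 0.09 and 0.07 ± 0.09 by its brightest probe set. Rpl22l1 (0.01 and 0.05), Rpl22 (0.15 and 0.02), Rps4l (-0.07 and -0.21) and Rpl39 in wild type (-0.12) were not called, and Rpl39 fell by 0.37 ± 0.13 in knock-in cerebellum. A second Rpl22 probe set gave -0.25 in both genotypes without a call. Rps25, no paralog, was higher in wild-type cerebellum (0.48 ± 0.13) and gave 0.22 in knock-in mice without a call. The rule matched no single-symbol probe set for Rpl3, Rpl10, Rpl10l, Rpl36a, Rpl36al or Rps19bp1.

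The called members were all lower among the brighter ones and mixed among the dimmer ones. Among the 42 brighter members 18 were lower and 0 higher in wild-type cerebellum (median -0.26), and among the 42 dimmer ones 9 were lower and 7 higher (median -0.11). In knock-in mice the brighter ones had 24 lower and 0 higher (median -0.29), and the dimmer ones 8 lower and 3 higher (median -0.15). Quantile normalization between arrays, which gives every array the same distribution of intensities, gave 23 lower and 4 higher in wild type (median -0.18) and 27 lower and 4 higher in knock-in mice (-0.19). Cyclic loess gave 20 lower and 3 higher (-0.16), and 21 lower and 4 higher (-0.16). Of all 15627 tested probe sets, quantile normalization called 3474 lower and 3805 higher in wild type, and 3553 and 3718 in knock-in mice. Cyclic loess called 3710 lower and 3725 higher in wild type, and 3537 and 3636 in knock-in mice. With cyclic loess the lower share of the members was thus close to that of all tested. Their higher share was smaller. The 17 members with the unique suffix had 3 lower and 3 higher in wild type and a median of -0.09, and 4 lower and 0 higher in knock-in mice with a median of -0.17. Of all tested probe sets 21.3% were lower and 26.6% higher in wild type, and 21.2% and 24.5% in knock-in mice. The lower share of these 17 was thus under that of all tested in wild type and near it in knock-in mice. The 90 tested probe sets that name a ribosomal protein gene with other symbols had 29 lower and 2 higher in wild type (median -0.18) and 42 lower and 3 higher in knock-in mice (median -0.28).

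Single arrays moved these counts. Wild type had 34 calls with all arrays, 17 without cerebellum replicate 1 at 11 weeks and 20 without forebrain replicate 1 at 11 weeks. Knock-in mice had 35, and 13 without cerebellum replicate 1 at 11 weeks, 20 without forebrain replicate 2 at 11 weeks and 49 without cerebellum replicate 2 at 11 weeks. In each of these fits the lower members outnumbered the higher ones. Their shares were not set beside those of all tested probe sets in the same fits. A lower share above that of all tested is therefore not shown there. The regions differ in their cells: markers of granule neurons (7 of 7), Purkinje cells (6 of 6), oligodendrocytes (7 of 7) and choroid plexus (4 of 4) were higher in cerebellum, and those of excitatory neurons (6 of 6) and microglia (8 of 8) were lower. The summed intensity of the granule neuron markers was 164704 to 197948 in cerebellum and 6330 to 7820 in forebrain, and that of the microglia markers 15514 to 18462 and 36129 to 49197. Their part in the ribosomal protein difference was not tested. Of the 16 genes lower in both genotypes, 13 had a promoter in the table and 9 of these held CCGGAAG, and of the other 29 tested genes 26 had one and 11 held it.

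Between genotypes few members differed. In cerebellum 0 members were called at 4 weeks (5 at an unadjusted p under 0.05), where 0.0448% of all tested probe sets were higher in knock-in mice and 0.0064% lower. At 11 weeks 0 were called (7 unadjusted), where 0.218% were higher and 0.128% lower. In forebrain 2 were higher and 1 lower at 4 weeks, beside 4.95% and 2.42% of all tested probe sets, and 0 were called at 11 weeks (3 unadjusted), beside 0.384% and 0.48%. The members' median in cerebellum was -0.08 at 4 weeks and 0.08 at 11 weeks, and in forebrain -0.02 and then 0.04. Over the mean of the 4 region and age groups 6 were higher and 1 lower, beside 15% and 8.65% of all tested probe sets, and the members' median was -0.01 against 0.03. All 7 called probe sets are among the 42 dimmer members, and 0 of the 42 brighter ones were called (2 at an unadjusted p under 0.05). Over all tested probe sets, every knock-in array had a higher median deviation (0.02 to 0.08) than every wild-type array (-0.06 to 0.01). Its brightness limit was higher too (682 to 775 against 606 to 680). The 2350 higher and 1351 lower of all tested became 1575 and 1555 with quantile normalization, and 1395 and 1887 with cyclic loess. The part of this shift in the members' calls was not tested.

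**Figure D4:**
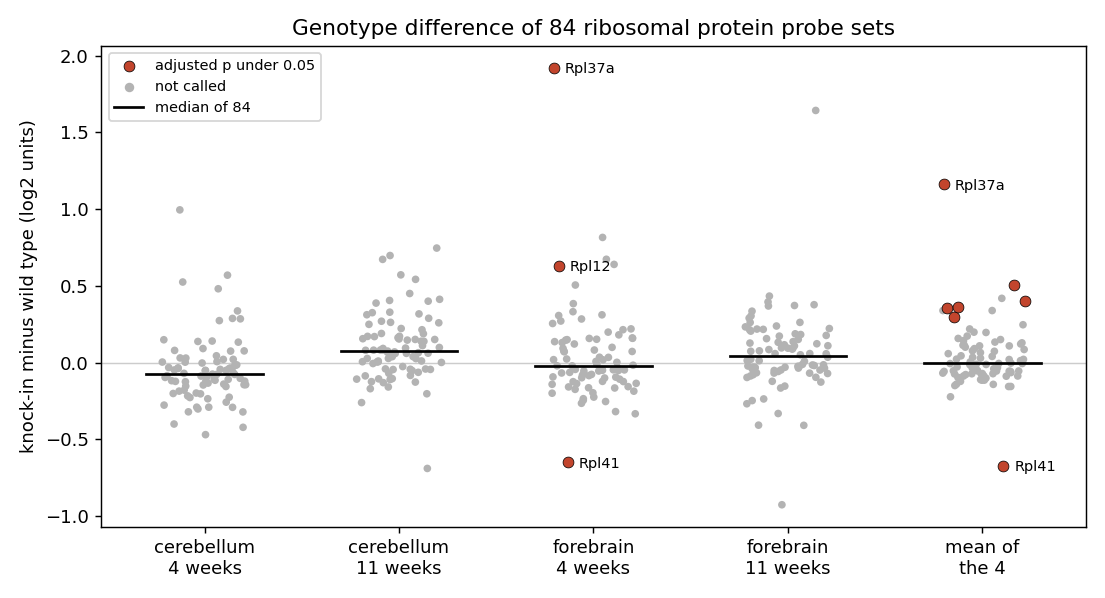
Knock-in minus wild type in log2 units for the 84 tested probe sets in each region and age and for the mean of the 4 (red, adjusted p under 0.05; grey, not called; black line, median of the 84). The medians lie between -0.08 and 0.08, and Rpl37a and Rpl41 are the outermost called members.

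The largest rise was that of the dimmest tested Rpl37a probe set. Rpl37a is a zinc-binding protein of the large subunit. In forebrain the probe set read 3374, 3255 and 3642 in knock-in mice and 1887, 624 and 597 in wild type at 4 weeks, and 2573 and 2406 against 1000 and 616 at 11 weeks. All knock-in arrays were above all wild-type arrays at both ages, but such separation was not counted over all tested probe sets. In cerebellum it read 3027, 1362 and 2309 against 711, 653 and 2516 at 4 weeks, and 2449 and 2333 against 1788 and 2809 at 11 weeks, so the groups overlapped. The difference in forebrain was 1.92 ± 0.48 at 4 weeks (limma, adjusted p = 0.027) and 1.78 ± 0.38 over both ages (limma, adjusted p = 0.00916). Over the 4 groups it was 1.16 ± 0.27 (limma, adjusted p = 0.00729). The probe set lay above the brightness limit on 5 of 5 knock-in arrays in each region. In wild type it did so on 3 of 5 forebrain and 4 of 5 cerebellum arrays, so these differences are partly against values under the limit. The 2 bright Rpl37a probe sets, which read 15943 to 32533, gave -0.01 ± 0.08 and 0.20 ± 0.09 over the 4 groups and were not called.

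Rpl12 lies at the base of the stalk, where it binds the large ribosomal RNA with Rplp0, and its only probe set carries the unique suffix. It read 983, 1133 and 1189 in knock-in and 721, 799 and 758 in wild-type cerebellum at 4 weeks, and 908 and 1254 against 647 and 681 at 11 weeks. In forebrain it read 1053, 1244 and 1503 against 725, 1035 and 694 at 4 weeks, and 1115 and 1186 against 864 and 1147 at 11 weeks. Knock-in arrays were all above wild-type arrays in 3 of the 4 groups. The difference over the 4 groups was 0.51 ± 0.10 (limma, adjusted p = 0.00245), and it was 0.63 ± 0.17 in forebrain at 4 weeks (limma, adjusted p = 0.039). The forebrain call was lost with quantile (0.51, limma, adjusted p = 0.0965) and cyclic loess normalization (0.45, adjusted p = 0.137), without the filter (adjusted p = 0.064) and with the compared arrays alone (adjusted p = 0.132). The call over the 4 groups held in all 29 alternatives run for it, at an adjusted p of at most 0.0163.

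Rpl37, another zinc-binding protein of the large subunit, did not overlap between genotypes in 3 of the 4 groups either. In cerebellum it read 2409, 2556 and 2530 in knock-in and 1924, 1687 and 1752 in wild-type mice at 4 weeks, and 2488 and 3562 against 1934 and 1617 at 11 weeks. In forebrain it read 3460, 2546 and 3039 against 2980, 2860 and 2260 at 4 weeks, where the groups overlapped, and 3315 and 2910 against 2708 and 2645 at 11 weeks. The difference was 0.40 ± 0.08 over the 4 groups (limma, adjusted p = 0.00422) and 0.61 ± 0.12 over both ages in cerebellum (limma, adjusted p = 0.0141).

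The dimmest tested Rpl41 probe set read lower in knock-in than in wild-type mice in all 4 groups, but 6 of its 10 knock-in values lie under the brightness limit. It read 920, 655 and 895 against 1240, 1021 and 1039 in cerebellum at 4 weeks, and 861 and 801 against 1286 and 1417 at 11 weeks. In forebrain it read 551, 519 and 583 against 1026, 864 and 750, and then 659 and 386 against 1119 and 848. All 5 knock-in forebrain values lie under the limits of their arrays (697 to 758), as does the 655 in cerebellum, and all 10 wild-type values lie above theirs. The probe set thus passed the filter in forebrain through wild type alone. The difference over the 4 groups was -0.67 ± 0.10 (limma, adjusted p = 0.000733). With values under the limit raised to it, a choice made after these values were seen, it was -0.45 (limma, adjusted p = 0.000805). The same step gave -0.55 over both ages in cerebellum (adjusted p = 0.00982) and -0.35 in forebrain (adjusted p = 0.0348), and in forebrain at 4 weeks it left -0.23 without a call (adjusted p = 0.261). The 2 brighter Rpl41 probe sets gave -0.22 ± 0.14 and -0.07 ± 0.09 and were not called, so here too the probe sets of the gene disagree.

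**Figure D5:**
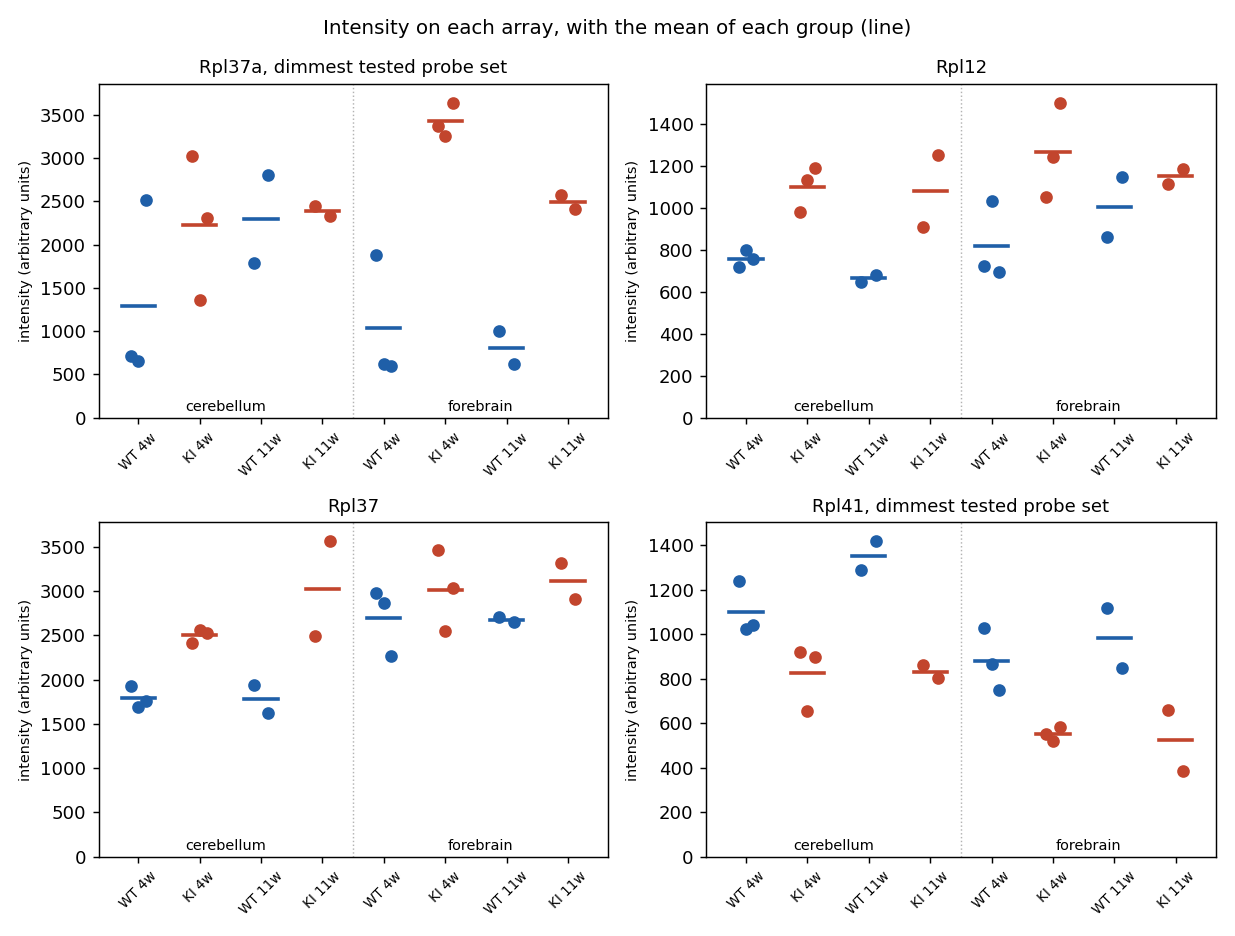
Intensity on each array (points) with group means (lines) for the dimmest tested probe sets of Rpl37a and Rpl41 and for Rpl12 and Rpl37, by region, genotype (WT wild type, KI knock-in) and age in weeks (w). The Rpl41 probe set reads lower on all knock-in arrays than on the wild-type arrays of its group in 4 of 4 groups, with all 5 knock-in forebrain values under the brightness limit, and Rpl12 and Rpl37 read higher in 3 of 4. How many of all tested probe sets separate in this way was not counted.

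The other calls over the 4 groups were on single probe sets of genes with several. The second Rps27l probe set rose by 0.36 ± 0.08 (limma, adjusted p = 0.00465), beside 0.11 ± 0.06 and 0.42 ± 0.16 for the other 2, not called. The dimmest Rpl7 probe set rose by 0.35 ± 0.10, while the brighter 2 gave 0.00 ± 0.07 and 0.06 ± 0.10. A Rps24 probe set rose by 0.29 ± 0.09, and its other 3 gave 0.09 to 0.25. Of the genes with more than 1 tested probe set, 19 in all, 8 had all probe sets on the same side of 0 over the 4 groups, whereas 12 did for the region difference in wild type. The brightest probe sets of Rplp0 (-0.07), Rplp2 (-0.07), Rpsa (-0.09), Rpl7 (0.00), Rpl7l1 (0.13), Rps27 (0.34), Rpl22 (0.17), Rpl22l1 (-0.07), Rpl39 (0.20), Rps4x (0.03) and Rps4l (-0.14) were not called.

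Within 1 region, 3 members were higher and 1 lower over both ages in cerebellum, beside 2.25% and 1.1% of all tested probe sets. They were Rpl37, Rpl12 (0.60 ± 0.14) and the second Rps27l probe set (0.43 ± 0.11), with the dim Rpl41 probe set at -0.56 ± 0.15. The Rps27l call (limma, adjusted p = 0.0444) was lost with quantile (0.0646) or cyclic loess normalization (0.0632), without the filter (0.0734), with the compared arrays alone (0.104) and with the replicate number as a fixed block (0.0557). That of Rpl12 (limma, adjusted p = 0.0288) was lost with both normalizations (0.0846 and 0.0737) and without the filter (0.0532), and that of Rpl41 (adjusted p = 0.0489) without the filter (0.0829). These 4 calls became 0 without knock-in or without wild-type cerebellum replicate 2 at 11 weeks, 1 without wild-type cerebellum replicate 3 at 4 weeks or replicate 1 at 11 weeks, and 2 without knock-in cerebellum replicate 1, 2 or 3 or wild-type replicate 2 at 4 weeks. In forebrain 1 was higher and 1 lower over both ages, beside 8.36% and 5.13%. They were the dim probe set of Rpl37a, with 3 of 5 wild-type values above the limit, and that of Rpl41 (-0.79 ± 0.15, with knock-in values all under the limit). Without wild-type forebrain replicate 2 at 11 weeks there were 4. In forebrain at 4 weeks the 3 calls became 0 without knock-in replicate 2, and 1 without knock-in replicate 1 or 3 or wild-type replicate 2 or 3.

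In the groups with 0 calls, the members with the smallest p were named by rule. In cerebellum at 4 weeks these were Rpl37 (0.48), Rpl12 (0.53), a dim Rpl35 probe set (0.57), the dim Rpl41 probe set (-0.42), a second Rpl35 probe set (-0.32) and Rps10 (-0.26). At 11 weeks they were Rpl37 (0.75), Rps27l (0.57 and 0.41), the dim Rpl41 probe set (-0.69), Rpl22 (-0.26) and Rpl13a (-0.16). In forebrain at 11 weeks they were Rpl37a (1.64 and 0.40), Rps27l (0.38), Rpl41 (-0.93 and -0.41) and Rpl22 (-0.33). The smallest adjusted p among them was 0.0701 (limma, Rpl41 in forebrain at 11 weeks). The genotype difference was compared between the ages too, and 0 members were called (5 at an unadjusted p under 0.05), as were 0% of all tested probe sets either way. The members' median of that difference was 0.11, and -0.01 without knock-in cerebellum replicate 2 at 11 weeks.

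With age, 2 members rose in cerebellum and 0 fell, beside 0.474% and 1.27% of all tested probe sets, and the members' median was 0.19 against -0.01. Above 0 lay 74 of the 84 members, and 7382 of the 15627 tested probe sets. Rpl8, a protein close to the site of peptide bond formation, read 9904, 12178 and 8736 in knock-in and 11146, 11520 and 10435 in wild-type cerebellum at 4 weeks. At 11 weeks it read 13280 and 16883, and 13849 and 15595. All 4 arrays at 11 weeks were above all 6 at 4 weeks, but such separation was not counted over all tested probe sets. The difference was 0.49 ± 0.12 (limma, adjusted p = 0.0477). A Rps10 probe set rose by 0.38 ± 0.09 (limma, adjusted p = 0.0462), and Rps6, whose protein is a target of the S6 kinases, gave 0.49 without a call (limma, adjusted p = 0.073).

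This age difference rests on few arrays. Without knock-in cerebellum replicate 2 at 11 weeks the median was 0.09 and the count 0. Leaving out wild-type cerebellum replicate 1 or 2 at 11 weeks, knock-in replicate 1 or 3 at 4 weeks, or any wild-type replicate at 4 weeks also gave 0, and leaving out knock-in replicate 1 at 11 weeks gave 6. Of 7 oligodendrocyte markers 4 were lower at 11 weeks in cerebellum, and their summed intensity was 158003 to 207717 in knock-in and 182821 to 199105 in wild-type mice at 4 weeks, and 121489 to 126508 and 134495 to 139391 at 11 weeks. The part of this fall in the rise of the members was not tested. In forebrain 0 members were called with age (4 at an unadjusted p under 0.05), beside 0% of all tested probe sets higher and 0.096% lower, and the median was 0.06. Rpl8 gave 0.37 there. The age difference was compared between the regions, and 0 members were called (3 unadjusted), beside 0.0256% of all tested probe sets either way. Any batch that goes with age cannot be told apart from it.

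The rest of the translation machinery was taken from fixed gene lists, with the brightest tested probe set of each gene. Of 47 translation factors 8 were higher (17%) and 6 lower (12.8%) in wild-type cerebellum than in forebrain (median 0.04), beside 26.6% and 21.3% of all tested probe sets. Among the lower ones was Eef1a1, the elongation factor that brings transfer RNA to the ribosome and whose messenger also starts with a pyrimidine run (-0.28 ± 0.08 in wild type and -0.39 ± 0.08 in knock-in mice). It is named here after its values were seen, and cyclic loess left it at -0.11 and -0.17 without a call. Of 74 mitochondrial ribosomal protein genes, which make a separate ribosome, 7 were higher (9.46%) and 6 lower (8.11%), with a median of 0.03. Both lists thus held a smaller share of calls than all tested probe sets, either way. Fau, the only gene tested of a short list of cytosolic ribosomal proteins whose symbols the rule does not cover, gave -0.20 without a call.

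Of 46 genes of ribosome biogenesis 8 were higher (17.4%) and 4 lower (8.7%) in wild-type cerebellum, again beside 26.6% and 21.3% of all tested. Emg1, a methyltransferase of the small subunit RNA, rose by 0.98 ± 0.11 in wild type and 1.23 ± 0.11 in knock-in mice. Gar1, a core protein of the particles that make pseudouridine, fell by 0.57 ± 0.09 in wild type. Of 15 genes of growth signalling and transcription factors 3 were higher and 3 lower (20% each). Sp1, which binds GC boxes, rose by 1.17 ± 0.10 in wild type and 0.94 ± 0.10 in knock-in mice. Mycn, a growth regulator of neural precursors, fell by 0.80 ± 0.12 and 1.01 ± 0.12. Gabpa, an ETS family factor, rose by 0.81 ± 0.13 and 0.71 ± 0.13, and it is named after its values were seen. Rps6ka3, a growth factor activated kinase, gave 0.40 ± 0.11 and 0.86 ± 0.11, both called.

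Between genotypes, over the 4 groups, 1 translation factor was higher (2.13%) and 3 lower (6.38%) in knock-in mice, beside 15% and 8.65% of all tested probe sets. Of the biogenesis genes 7 were higher (15.2%) and 2 lower (4.35%). Rrp9, a protein of the U3 particle that processes ribosomal RNA, fell by 1.63 ± 0.24 (limma, adjusted p = 0.000644), but with values under the limit raised to it the difference was -0.22 without a call (adjusted p = 0.185). Wdr43, a nucleolar protein of small subunit assembly, rose by 0.49 ± 0.09. Of the mitochondrial ribosomal proteins 13 were higher (17.6%) and 1 lower (1.35%), the higher share being near the 15% of all tested. Mrpl28 gave 0.32 ± 0.05. Of the 15 growth genes 1 was higher and 5 lower, with Sp1 at -0.36 ± 0.07. With age 0 genes of these lists were called in either region.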

How the data were processed

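The authors deposited a linear intensity for each probe set on each array. The trimmed mean of an array, with 2% cut at each end, was 2500.59 to 2500.75 on every array, so the authors had scaled the arrays to a common mean; the summary method is not given in the sources used here. Symbols came from the platform annotation. Values were tested as log2(intensity + 16), which understates differences of dim probe sets. A probe set was kept where it exceeded its array's 40th percentile (median limit 681) on at least 2 arrays, which left 15627. Limma 3.58.1 (lmFit, eBayes), run in R 4.3.3 after reading the files with data.table (version 1.17.8), fitted 1 mean per group to all 20 arrays, with 12 residual and 3.45 prior degrees of freedom and Benjamini-Hochberg adjustment, two-sided. In means over ages, each age counts the same. The fit was tested on simulated data. In each comparison the called members with the greatest rises and falls were named, up to 12 each way, with the 3 of smallest p each way where fewer than 4 were called, a set of paralogs, and up to 4 called genes of the translation lists. The members, lists and rules were chosen with earlier results of these data known. The alternatives were other offsets, no filter, quantile and cyclic loess normalization, 1 probe set per gene, the compared arrays alone, unique probe sets only, a replicate block, leaving out each array and, chosen after the values were seen, raising values under the brightness limit to it. Arrays have no depth, so precision is set by how many there are.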

Additional observations from a re-analysis of the deposited data

How the results depend on the processing

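All 52 named differences of members that were called kept their direction under every alternative run, and 29 of them also kept their call. They were named for their calls, and the alternatives reuse the same arrays. A kept direction was therefore likely beforehand and is no further support. The region counts of 34 in wild type and 35 in knock-in mice became 17 and 21 with 1 probe set per gene, and 6 and 4 with unique probe sets only, in both cases among fewer members. Leaving out 1 array gave 17 to 40 in wild type and 13 to 49 in knock-in mice. For genotype in forebrain at 4 weeks the count of 3 became 1 without the filter, with 1 probe set per gene or with unique probe sets only, and 0 with the compared arrays alone, and it was 0 to 2 with 1 array left out. In cerebellum over both ages the count of 4 became 1 without the filter or with unique probe sets only, and 2 with quantile or cyclic loess normalization or 1 probe set per gene, and it was 0 to 4 with 1 array left out. In forebrain over both ages the count of 2 became 4 with values under the limit raised to it, 1 with 1 probe set per gene and 0 with unique probe sets only, and it was 2 to 4 with 1 array left out. Over the 4 groups 7 became 2 with 1 probe set per gene and 1 with unique probe sets only, and 5 to 10 with 1 array left out. The count of 0 became 1 in forebrain at 11 weeks with quantile or cyclic loess normalization and 0 to 1 with 1 array left out, and in cerebellum at 11 weeks it became 1 with values under the limit raised to it and 0 to 2 with 1 array left out. With age in cerebellum, 2 became 1 with cyclic loess or 1 probe set per gene, 0 without the filter, with the compared arrays alone or with unique probe sets only, and 0 to 6 with 1 array left out. Counts over all tested probe sets moved too. With the compared arrays alone, 149 were higher and 74 lower for genotype in forebrain at 4 weeks, in place of 773 and 378. With values under the limit raised to it, 1901 were higher and 1000 lower over both ages in forebrain, in place of 1307 and 801. A changed member count is therefore not in itself a result about the members. The causes of these changes were not tested.

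With unique probe sets only, the members' median was 0.16 and 0.18 for genotype in forebrain at 4 and 11 weeks, 0.17 over both ages, 0.13 over the 4 groups, -0.093 for the region in wild type and 0.058 for age in cerebellum. The mean array median of knock-in forebrain at 4 weeks was 0.082 with quantile and 0.079 with cyclic loess normalization. With 1 array left out, the members' median ranged from -0.12 to 0.28 for genotype in cerebellum at 11 weeks, from -0.14 to 0.097 for its difference between regions and from -0.0073 to 0.22 for its difference between ages, with the lowest value in each case without knock-in cerebellum replicate 2 at 11 weeks and the highest without replicate 1.

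Samples with the same replicate number correlated at -0.10 to 0.11 in their deviations from the group means, so the numbers were not taken as pairs. With replicate number as a fixed block, 37 and 38 members were called for the region in wild type and knock-in mice, 9 over the 4 genotype groups, 3 for age in cerebellum, and, for genotype, 4 in forebrain at 4 weeks, 3 over both ages in forebrain and 3 over both ages in cerebellum, where the Rps27l call was lost. With a random block shared between regions (correlation 0.057) the counts were 37, 36, 7, 2, 3, 2 and 4, in the same order. Of all tested probe sets the main fit called 4149 higher and 3336 lower for the region in wild type. The fixed block gave 4171 and 3386, and the random block 4267 and 3428. In knock-in mice these were 3821 and 3311, 3858 and 3327, and 3951 and 3428. Over the 4 genotype groups they were 2350 and 1351, 2345 and 1343, and 2139 and 1245.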
